A study of Mus musculus with 16 samples.

Results

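Brown adipose tissue from mice without a working Ucp1 gene was compared after isoproterenol and after saline. The comparison holds 8 of the 16 libraries of the series, 4 of Ucp1-knockout mice infused with isoproterenol and 4 of Ucp1-knockout mice infused with saline. The libraries were assigned to groups by the genotype and treatment labels. All 8 came from interscapular brown fat of C57BL/6J mice, and both groups carry the knockout. Isoproterenol was given at 60 mg/kg/day from an implanted minipump for 3 days, and the saline group carries the treatment label saline. The labels name no age, no sex and no tissue-restricted driver for the knockout, and they do not say which part of the gene is missing, so reads over Ucp1 do not test the genotype. The remaining 8 libraries are wild type and are used only to set the spread between replicates beside that of the knockout. The labels do not state that each library is a separate animal, so the p-values rest on the variation among these 8 libraries, part of which could be technical.

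Brown adipocytes turn stored fat and glucose into heat. Noradrenaline from sympathetic nerves acts on their beta-adrenergic receptors, raises cAMP and activates protein kinase A, which starts lipolysis and the transcription of thermogenic genes. UCP1, a carrier in the inner mitochondrial membrane, lets protons return without making ATP, so that the respiratory chain runs fast and its energy leaves as heat. Isoproterenol is a synthetic agonist of all beta-adrenergic receptors. The series title names BMP3b, the secreted factor encoded by Gdf10, as a product of brown fat.

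Messenger RNA was sequenced and values are given for 15350 genes. Levels are printed as CPM (read counts scaled to library size), worked out from the whole reads behind the deposited log2 values. Where 4 values stand in a row they are replicates 1 to 4, and the libraries are called saline 1 to 4 and isoproterenol 1 to 4. A span such as a–b gives the lowest and the highest library of a group, so that a change from one span to another is from saline to isoproterenol. Log2 fold changes are isoproterenol minus saline, with the standard error (SE) from limma, a linear model fitted to every gene, and a gene is said to have risen or fallen when its Benjamini-Hochberg adjusted p was under 0.05. The reads per library ran from 9004515 to 14381797 with saline and from 12914590 to 20986735 with isoproterenol, and 3 reads correspond to 0.143 to 0.345 CPM, a limit that covers counting error only. Genes with near-identical copies (Hspa1a and Hspa1b, Serpina3m and Serpina3n, Oas1a, Ly6c2, class I histocompatibility genes, Atp5g1 and ribosomal protein genes with pseudogenes) can share reads, as can overlapping genes, and the split of such reads is uncertain.

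Isoproterenol moved a large part of the transcriptome. In all, 2497 genes rose (16.3% of those tested) and 2681 fell (17.5%), of which 1724 and 1792 changed at least 2-fold. The median log2 fold change over all genes was 0.00. Scaling by library totals in place of the deposited scaling moved that median to 0.18 and the calls to 3053 higher and 2077 lower, so that 59.5% of calls were increases against 48.2% with the deposited scaling. All 4 isoproterenol libraries lay above all 4 saline libraries for 2784 genes (18.1%) and below them for 2967 genes (19.3%). Calls and separation did not coincide in every case, since 366 called genes still overlapped between the groups, and 939 genes were separated without being called. The number of calls was lower when any saline library was left out, at 1623 higher and 1884 lower without saline 1, 1518 and 1728 without saline 2, 1747 and 1927 without saline 3, and 1567 and 1737 without saline 4. It was 1629 higher and 2028 lower without isoproterenol 3, and 3141 and 3323 without isoproterenol 4. Of the 5178 called genes, 2856 (55.2%) kept their call in all 8 fits that left out 1 library. For 9 lists (adrenergic and cAMP signalling, other heat-producing cycles, fatty acid uptake and oxidation, lipolysis and lipid droplets, cholesterol, dendritic cell, NRF2 and antioxidant, iron, and angiogenesis) the shares called in both directions lay within 10 percentage points of those over all genes, a limit set after the values were seen, and nothing is read from their counts. Counts of the other lists are likewise to be set beside the shares over all genes, 16.3% higher and 17.5% lower. The examples below were taken from genes that kept their call in all 8 fits, where the lists allowed it. For any other called gene, the libraries without which its call was lost are named with the limma adjusted p. Where a gene list is said to have no call in a direction, at most 2 of its members had an unadjusted limma p under 0.05 in that direction (T and NK cell genes, lower), and voom precision weights called at most 1 (a neutrophil gene, lower).

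The 4 isoproterenol libraries were far from alike. Over all genes, the median standard deviation (SD) of log2 CPM was 0.44 with isoproterenol and 0.25 with saline, and it was 0.24 and 0.20 in the wild-type isoproterenol and saline groups, each with 4 libraries. An SD above 1 was seen for 2596 genes in the isoproterenol-treated knockouts, for 638 in the saline knockouts, and for 404 and 597 in the wild-type groups. The SD was larger with isoproterenol than with saline in 74.7% of genes, by a median ratio of 1.71. Pairwise Pearson correlations across genes were 0.964 to 0.974 among the saline libraries and 0.852 to 0.957 among the isoproterenol libraries, a description in which genes are not independent replicates.

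The spread had an order. On the axis of largest variance (63.7% of the total), the saline libraries lay between -88.0 and -63.5, while isoproterenol 1, 2, 3 and 4 lay at 148, 66.3, 74.8 and 18.1. Isoproterenol 1 was farthest from saline and isoproterenol 4 nearest. Counted gene by gene, isoproterenol 1 had 3234 genes at least 2-fold above and 3625 at least 2-fold below the saline mean, against 1559 and 1772 in isoproterenol 4. Isoproterenol 2 had 2438 and 2598, and isoproterenol 3 had 2590 and 2122. The plot of the 8 libraries on their axes of variance shows the tight saline cluster and the open isoproterenol group.

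**Figure D1:**
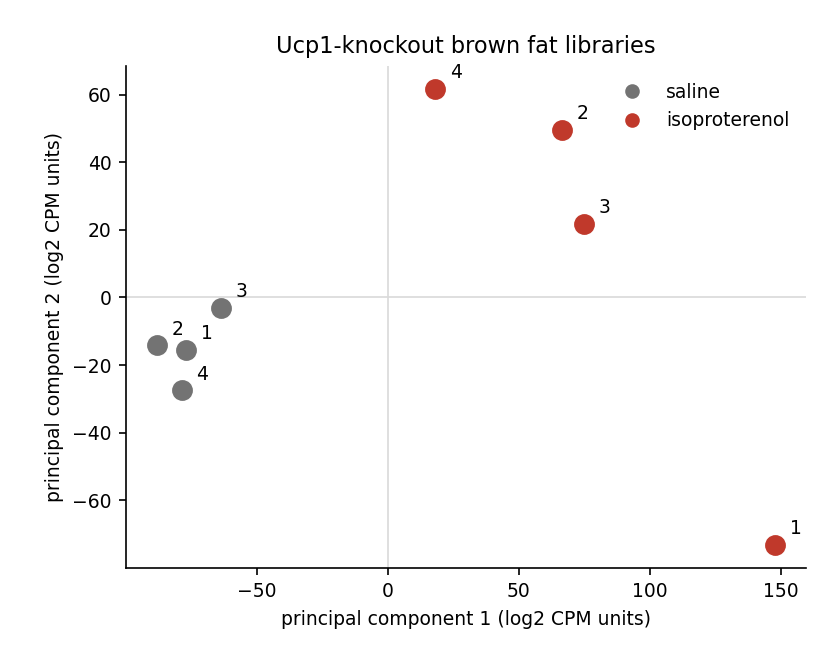
The 8 knockout libraries on the leading principal component (x, 63.7% of variance) and the next (y, 15.1%). Both are weighted sums, over 15350 genes, of the deviations of log2 CPM from each gene's mean. Each point is 1 library, numbered by replicate. The saline libraries lie between -88.0 and -63.5 on x, and the isoproterenol libraries between 18.1 and 148.

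Markers of brown fat were present in every saline library. Adipoq, which encodes the adipocyte hormone adiponectin, was at 1388–1866 CPM, Fabp4, the fatty acid carrier of adipocytes, at 9401–10568 CPM, and Cidea, a lipid droplet protein typical of brown fat, at 2832–3794 CPM. With isoproterenol they were at 201–1076, 2577–26476 and 30.2–2999 CPM, in each case lowest in isoproterenol 1 or 2. Cidea was not called with all 8 libraries and fell without isoproterenol 4 (log2 fold change -3.41, limma adjusted p = 0.0432). Skeletal muscle genes split the libraries without regard to treatment. Their summed level over 19 genes was 102, 1069.7, 1058 and 95.0 CPM with saline and 27.6, 908, 772 and 120.5 CPM with isoproterenol, high in replicates 2 and 3 of both groups. None of the 19 rose and Myl1, a myosin light chain that stood at 78.6, 126, 101 and 81.0 CPM with saline and 6.23, 34.5, 35.0 and 22.96 CPM with isoproterenol, was the 1 gene that fell (log2 fold change -2.22). The summed level of 21 macrophage genes was 628, 571, 817 and 464 CPM with saline and 10216, 2872, 6552 and 1414 CPM with isoproterenol, so all 4 treated libraries were above all saline libraries. That of 20 general adipocyte genes was 47176, 47971, 44587 and 47449 CPM and 10007, 26805, 43233 and 72661 CPM, lowest in isoproterenol 1 and highest in isoproterenol 4. In bulk tissue, fewer cells of a type and less RNA per cell cannot be told apart, and what part these shifts have in the results that follow was not tested.

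Ucp1 and Gdf10, the genes named by the genotype and the series title, are described in every library. Ucp1 stood at 1118, 587, 1156 and 409.8 CPM with saline and 18.9, 268, 848 and 2129 CPM with isoproterenol. Isoproterenol 1 and 2 were below the saline range, isoproterenol 3 was inside it and isoproterenol 4 above it. The difference was -1.27 on the log2 scale, with p = 0.514 in a two-sided exact permutation test whose smallest possible p is 0.0286 (limma SE 1.27, adjusted p = 0.466). Gdf10 stood at 10.5, 8.41, 11.1 and 12.3 CPM with saline and 25.7, 7.17, 12.7 and 4.71 CPM with isoproterenol. Here isoproterenol 1 and 3 were above every saline library and isoproterenol 2 and 4 below them all, so the groups overlapped. The difference of -0.03 gave p = 0.971 in the exact permutation test, and both tests adjusted together gave 0.971 (limma SE 0.47, adjusted p = 0.967).

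The 12 largest separated increases included products of myeloid cells and of the acute phase. Spp1, which encodes osteopontin, a secreted protein of activated macrophages, stood at 1.63, 1.58, 2.10 and 4.48 CPM with saline and 4399, 1373, 1376 and 61.3 CPM with isoproterenol (log2 fold change 8.54 ± 1.14 (SE), limma adjusted p = 0.00156). Even isoproterenol 4, the lowest treated library, was above every saline library. Chil3, a chitinase-like protein of myeloid cells, went from 0.496–1.95 to 59.6–1357 CPM (log2 fold change 8.29), Slfn4, an interferon-induced Schlafen family member, from 0.666–2.30 to 47.3–989 CPM (7.39), and Mmp8, the neutrophil collagenase, from 0–0.25 to 8.22–110.3 CPM (7.40). In all of these isoproterenol 1 was the highest library and isoproterenol 4 the lowest.

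The order of the treated libraries varied among the remaining 8 genes of the 12. Orm2, an acute-phase plasma protein, stood at 0.496, 0.5, 0.508 and 0.459 CPM with saline and 19.1, 188, 90.3 and 131 CPM with isoproterenol (log2 fold change 7.24 ± 0.62 (SE), limma adjusted p = 0.00038), and here isoproterenol 1 was the lowest treated library. Slc7a11, the cystine carrier that feeds glutathione synthesis, stood at 0.283, 0.25, 0.145 and 0 CPM with saline and 23.5, 99.7, 10.6 and 19.95 CPM with isoproterenol (7.23), with isoproterenol 2 highest. Lcn2, an iron-siderophore binding protein, went from 0.574–1.35 to 71.9–153 CPM (6.81), within a narrow range in the treated libraries. Arg2, the mitochondrial arginase, had no read in any saline library and 2.90, 29.9, 1.83 and 4.01 CPM with isoproterenol. Against the limit set by 3 reads in each saline library, it was at least 37.7-fold higher. F7, coagulation factor VII, went from 0.0833–0.798 CPM to 146, 26.0, 44.8 and 8.72 CPM (6.54), with isoproterenol 1 highest and isoproterenol 4 lowest, and Fam110c from 0–0.333 to 5.76–19.8 CPM (7.01). The serpin Serpina3m and the unnamed transcript 4930430E12Rik, each with at most 0.115 CPM in any saline library, reached 2.95–16.6 CPM, highest in isoproterenol 2, and 42.3, 6.80, 10.6 and 3.36 CPM, again highest in isoproterenol 1 and lowest in isoproterenol 4. Reads over the saline libraries summed to 1 for Serpina3m, 2 for 4930430E12Rik, 5 for Fam110c, 6 for Mmp8 and 9 for Slc7a11. The size and rank of their fold changes therefore depend on the 0.5 added to each read count.

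The 12 largest separated decreases included receptors and membrane enzymes. Ntrk3, a neurotrophin receptor, stood at 545, 709.8, 489 and 475 CPM with saline and 2.85, 17.9, 8.93 and 15.3 CPM with isoproterenol (log2 fold change -5.90 ± 0.52 (SE), limma adjusted p = 0.000417). Every treated library was far below every saline library. Lctl, a lactase-like protein that partners FGF receptors, stood at 65.7, 91.9, 77.9 and 76.5 CPM with saline and 2.14, 2.35, 2.66 and 1.55 CPM with isoproterenol (log2 fold change -5.16 ± 0.21 (SE), limma adjusted p = 1.11e-05), with close agreement among the treated libraries. Car14, a membrane carbonic anhydrase, went from 17.9–37.8 to 0.143–0.741 CPM (-6.03) and Fras1, an extracellular matrix protein, from 9.53–27.2 to 0–0.185 CPM (-7.13). Ptgds, a prostaglandin D synthase, went from 7.01–60.3 to 0.0476–2.66 CPM (-5.14), Il17re, an interleukin-17 receptor chain, from 18.9–32.5 to 0.19–1.504 CPM (-5.13) and Shisa7, a membrane protein of the Shisa family, from 7.18–12.5 to 0–0.556 CPM (-5.72). Rab17, a small GTPase of vesicle traffic, went from 2.98–10.2 to 0–0.1 CPM (-6.29). The other 4, Gm48397, Gm9885, A530065N20Rik and 9130214F15Rik, are transcripts without a gene name of known function and had log2 fold changes of -5.78, -5.52, -6.21 and -5.44. Reads over the treated libraries summed to 4 for Rab17, 9 for Fras1, 9 for Gm48397, 17 for A530065N20Rik and 18 for Shisa7. The size and rank of these fold changes therefore depend on the 0.5 added to each read count.

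Genes of brown and thermogenic identity had a lower median, but the share that fell was near that over all genes. Of 30 measured, 8 fell and 1 rose (26.7% and 3.33%, against 17.5% and 16.3% of all genes). The median log2 fold change was -1.67 against 0.00 over all genes. The 4 isoproterenol libraries stood at medians of -4.41, -1.58, -1.17 and -0.09 relative to the saline mean, so that isoproterenol 1 carried the largest deficit and isoproterenol 4 almost none. The count of falling genes was 5 without saline 2 or 4 and 14 to 17 without isoproterenol 1 or 4. Prdm16, the transcriptional co-regulator that sets brown fat fate, stood at 69.1, 64.3, 65.6 and 56.9 CPM with saline and 19.8, 32.4, 30.2 and 49.3 CPM with isoproterenol (log2 fold change -1.03 ± 0.25 (SE), limma adjusted p = 0.0156). All treated libraries were below all saline libraries, with isoproterenol 4 the closest. Esrra, the estrogen-related receptor that drives mitochondrial genes, stood at 229, 294, 224 and 274 CPM with saline and 49.2, 68.6, 109 and 158 CPM with isoproterenol (-1.54). Nrg4, a growth factor released by brown fat, went from 222–287 to 14.7–106 CPM (-2.25) and Acot11, an acyl-CoA thioesterase induced by cold, from 139–251 to 12.5–102 CPM (-2.43). Ppara, the fatty acid-sensing nuclear receptor, fell from 138–323 to 2.28–90.8 CPM (-3.42). Ppara lost its call without saline 1, 2, 3 or 4 or isoproterenol 3 (limma adjusted p 0.0529 to 0.0753).

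Other thermogenic genes did not pass the test, and their treated libraries lay far apart. Dio2, the deiodinase that makes active thyroid hormone, stood at 725, 110.4, 218 and 87.6 CPM with saline and 28.2, 153, 329 and 491 CPM with isoproterenol (log2 fold change -0.28, limma adjusted p = 0.845). Ppargc1a, the co-activator of mitochondrial biogenesis, stood at 155, 50.5, 132 and 56.6 CPM with saline and 3.38, 114, 137 and 341 CPM with isoproterenol. For both, isoproterenol 1 was below every saline library while Ppargc1a in isoproterenol 4 was above them all. Elovl3, a fatty acid elongase of cold-activated brown fat, spanned 7.52–1683 CPM with isoproterenol against 15.6–99.0 CPM with saline, with isoproterenol 1 below the saline range and the other treated libraries above it. Elovl3 was not called with all libraries and rose without isoproterenol 1 (log2 fold change 3.98, limma adjusted p = 0.00755). Bmp8b, a BMP ligand of activated brown fat, was the list's gene that rose, at 0, 0, 0.435 and 1.38 CPM with saline and 0.571, 20.3, 6.06 and 20.1 CPM with isoproterenol (5.12), although isoproterenol 1 overlapped with saline. Its call was lost without saline 1 or 2 or isoproterenol 2, 3 or 4 (limma adjusted p 0.0515 to 0.0843). The plot of thermogenic genes by library shows both kinds of pattern.

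**Figure D2:**
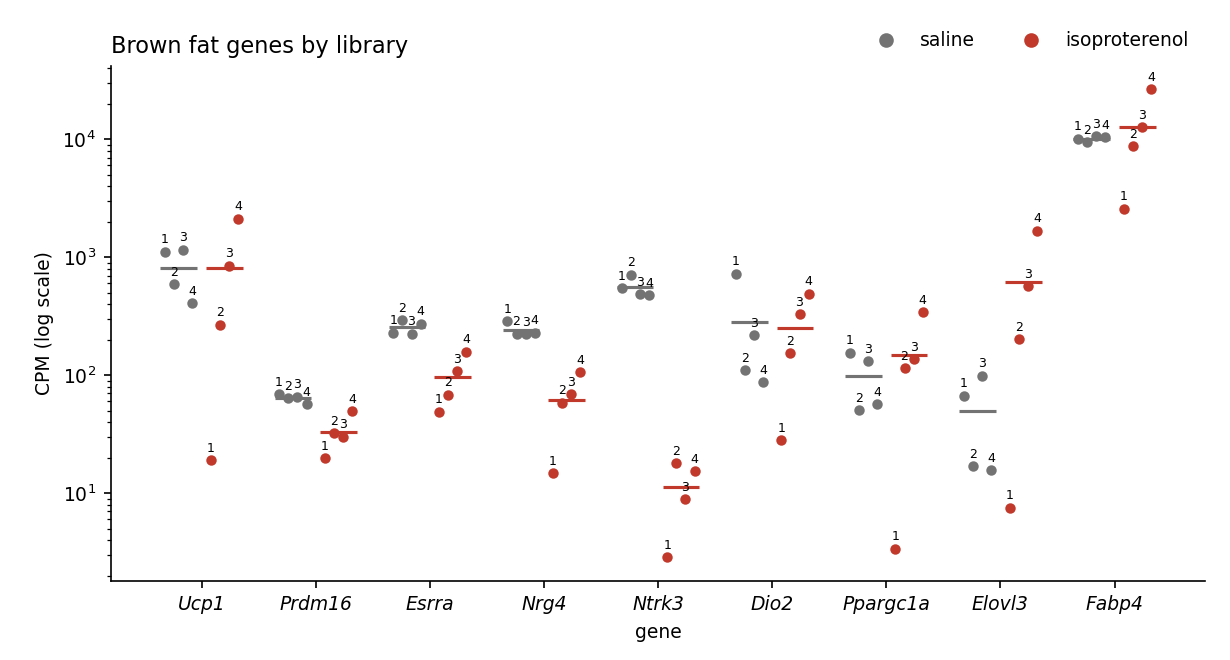
CPM (y, log scale) of 9 brown fat genes (x) in the 4 saline and 4 isoproterenol libraries of Ucp1-knockout mice; each point is 1 library, numbered by replicate, and bars mark group means. Prdm16, Esrra, Nrg4 and Ntrk3 are separated between groups, while Ucp1, Dio2, Ppargc1a, Elovl3 and Fabp4 overlap, with isoproterenol 1 the lowest treated library in each of these 5.

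General adipocyte genes gave a similar picture, again with a share of decreases near that over all genes. Of 20 measured, 5 fell and none rose (25% and 0%, against 17.5% and 16.3% of all genes), with a median log2 fold change of -1.13. The falling count was 2 to 3 without saline 1, 2 or 4 or isoproterenol 2. It was 10 without isoproterenol 4 and 3 with quantile normalization. Slc2a4, the insulin-responsive glucose transporter, stood at 500.4, 821, 507 and 875 CPM with saline and 38.7, 54.2, 174 and 179.7 CPM with isoproterenol (log2 fold change -2.86 ± 0.52 (SE), limma adjusted p = 0.00544). Cebpa, a transcription factor of adipocyte differentiation, stood at 991, 1014, 736 and 888 CPM with saline and 219, 197, 284 and 288 CPM with isoproterenol (log2 fold change -1.88 ± 0.22 (SE), limma adjusted p = 0.000915). The treated libraries agreed closely for Cebpa and were all below saline. Lep, which encodes leptin, fell from 31.9–201 to 8.22–42.4 CPM (-2.47), although isoproterenol 3 was inside the saline range. Adipoq (-1.92) and Cfd, the complement protease adipsin (-1.71), also fell. Pparg, the nuclear receptor at the head of the adipocyte program, spanned 142–335 CPM against 296–485 CPM with saline and was not called (limma adjusted p = 0.207). Calls were lost for Lep without saline 2 or 4 or isoproterenol 2 (adjusted p 0.0697 to 0.0765), Adipoq without saline 1, 2, 3 or 4 or isoproterenol 2 (0.0526 to 0.0654) and Cfd without saline 1 or 2 or isoproterenol 2 (0.0526 to 0.055).

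Isoproterenol acts through beta-adrenergic receptors and cAMP, and 39 genes of that pathway were followed. Of these, 4 rose (0 to 2 without saline 2, 3 or 4 or isoproterenol 3) and 7 fell (11 without isoproterenol 4). Among receptors, Adra1d, an alpha-adrenergic receptor, fell in all treated libraries, from 22.9, 37.4, 25.4 and 25.3 to 1.998, 3.71, 3.76 and 2.46 CPM (log2 fold change -3.23 ± 0.27 (SE), limma adjusted p = 0.000367). Adrb3, the main beta-adrenergic receptor of adipocytes, was not called and stood at 172, 225, 142 and 172 CPM with saline and 27.3, 46.4, 267 and 265 CPM with isoproterenol, with isoproterenol 1 and 2 below and isoproterenol 3 and 4 above every saline library. Adrb1 was at 51.0–67.4 CPM with saline and 4.95–48.8 CPM with isoproterenol, separated but not called (limma adjusted p = 0.0709). Adrb1 fell without isoproterenol 1 (log2 fold change -0.91, limma adjusted p = 0.0198) or without isoproterenol 4 (log2 fold change -2.005, limma adjusted p = 0.0192). Downstream, the adenylyl cyclases Adcy6 and Adcy9, which make cAMP, fell from 269–408 to 74.7–218 CPM (-1.51) and from 30.4–79.0 to 8.52–18.8 CPM (-1.73). Prkaca, the catalytic subunit of protein kinase A, stood at 528, 532, 543 and 533 CPM with saline and 91.4, 143, 210.1 and 302 CPM with isoproterenol (log2 fold change -1.65 ± 0.34 (SE), limma adjusted p = 0.00829). Saline libraries were almost identical for this gene, and the treated libraries were graded below them. Akap1, which anchors the kinase to mitochondria, fell from 510.0–788 to 31.0–248 CPM (-2.83) and the phosphodiesterase Pde8a from 91.9–120.3 to 44.6–64.5 CPM (-0.85). Adcy7 (1.84) and Arrb2, an arrestin that turns receptors off (1.83), rose. Calls were lost for Adcy7 without saline 1, 2, 3 or 4 or isoproterenol 2 or 3 (adjusted p 0.0525 to 0.0861) and Arrb2 without saline 2 (0.0521).

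Cycles that can make heat without UCP1 were covered by 22 genes, of which 2 rose and 5 fell. Increases numbered 1 without saline 1 or 2 or isoproterenol 2 or 3 and decreases 8 without isoproterenol 4. Ckb, the creatine kinase of the futile creatine cycle, fell from 249, 161, 165 and 142 to 56.2, 63.0, 85.6 and 52.3 CPM (log2 fold change -1.47 ± 0.22 (SE), limma adjusted p = 0.0025), and Alpl, the phosphatase proposed for the same cycle, rose from 25.6, 22.5, 30.2 and 30.7 to 53.6, 110.0, 88.8 and 154 CPM (log2 fold change 1.81 ± 0.30 (SE), limma adjusted p = 0.00357). These members of one cycle moved in opposite directions, each separated between the groups. Pm20d1, an enzyme that makes N-acyl amino acids, fell from 68.1–80.8 to 1.047–9.42 CPM (-4.66). Slc25a4, an ADP/ATP carrier, fell from 619.8–742 to 131–370.3 CPM (-1.69), and Dgat2, which completes triglyceride synthesis, from 3169–4636 to 152–1290.1 CPM (-2.60). The calcium pump gene Atp2a2 was at 393–587 CPM with saline and 287–586 CPM with isoproterenol and was not called (limma adjusted p = 0.47).

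The respiratory chain fell almost throughout. Of 37 complex I genes 36 fell (median log2 fold change -1.78), as did 4 of 4 of complex II (-2.07), 6 of 9 of complex III (-1.79), 12 of 14 of complex IV (-1.64) and 9 of 15 of complex V, the ATP synthase (-1.59). In complex I the 4 treated libraries stood at medians of -2.96, -2.16, -1.34 and -0.75, so all were below saline in graded steps. Ndufs7, a core subunit, stood at 622, 743, 545 and 658 CPM with saline and 52.8, 112, 174 and 322 CPM with isoproterenol (log2 fold change -2.24 ± 0.48 (SE), limma adjusted p = 0.01). Ndufa10 stood at 851, 1062, 897 and 1198 CPM with saline and 68.8, 183, 282 and 534 CPM with isoproterenol (-2.25). The 1 member that was not called, Ndufab1, had log2 fold change -1.23, with isoproterenol 4 inside the saline range, and fell without isoproterenol 4 (log2 fold change -1.69, limma adjusted p = 0.0125). In complex II, Sdhb, an iron-sulfur subunit, stood at 1385, 1798, 1190.1 and 1615 CPM with saline and 119, 245, 375 and 644 CPM with isoproterenol (log2 fold change -2.35 ± 0.48 (SE), limma adjusted p = 0.00808). Uqcr11 of complex III fell from 454–580.1 to 47.9–247 CPM (-2.05), Cox5a of complex IV from 339.9–443 to 39.7–195 CPM (-1.996) and Atp5k of complex V from 318–431 to 59.0–211 CPM (-1.70). Cox8b and Cox7a1, the subunit forms of brown fat and muscle, had the largest decreases of the chain, from 997–1422 to 10.5–349 CPM (-3.63) and from 442–681 to 7.99–233 CPM (-3.12). Against this, Atp5g1, a subunit of the membrane ring of the synthase, rose from 5.31, 5.25, 6.89 and 5.86 to 31.2, 22.6, 23.7 and 8.22 CPM (log2 fold change 1.72 ± 0.38 (SE), limma adjusted p = 0.0112), and Atp5g3, another gene for that subunit, stood at 244, 332, 248 and 285 CPM with saline and 168, 564, 287 and 698 CPM with isoproterenol and was not called.

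These counts depended on which library was left out. In such fits the complex I count was 19 to 21 without saline 2 or 4, that of complex III 1 to 2 without saline 2 or 4 or isoproterenol 2, that of complex IV 3 to 7 without saline 1, 2, 3 or 4 or isoproterenol 2 or 3 and that of complex V 4 to 5 without saline 2 or 4. For complex II it was 2 without saline 2 or isoproterenol 2. Over the 5 complexes 29 decreases kept their call in all 8 such fits, 19 of them in complex I. Calls were lost for Cox8b without saline 2 or 4 (adjusted p 0.0539 to 0.0558) and Cox7a1 without saline 1, 2, 3 or 4 or isoproterenol 2 (0.0567 to 0.0721). Among treated libraries the summed adipocyte level given above increased from isoproterenol 1 to 4, the order of the complex I medians. In isoproterenol 4 that level was above every saline library (72661 CPM against 44587 to 47971), while the complex I median was -0.75. A summed level is weighted toward the most abundant genes. The medians of the same adipocyte list were -2.55, -1.51, -0.37 and 0.04 in isoproterenol 1 to 4, so by the median isoproterenol 4 was close to the saline mean. The summed macrophage level was in the order of isoproterenol 1, 3, 2 and 4 from high to low. The part of either was not tested.

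Mitochondrial translation and upkeep followed to a lesser degree. Of 75 mitochondrial ribosomal proteins 38 fell and none rose, with a median log2 fold change of -0.77 and treated libraries at -1.29, -0.94, -0.60 and -0.20. The count was 22 to 24 without saline 1, 2 or 4 or isoproterenol 2 and 61 without isoproterenol 4. Mrpl34 stood at 122, 174, 115 and 159.7 CPM with saline and 18.6, 28.0, 51.4 and 69.5 CPM with isoproterenol (log2 fold change -1.93 ± 0.39 (SE), limma adjusted p = 0.00772), and Mrpl49, whose treated libraries were close together, went from 66.1–75.5 to 24.2–33.5 CPM (-1.29). Among 29 genes of mitochondrial dynamics and quality control 12 fell and 2 rose, with decreases at 4 to 6 without saline 1, 2, 3 or 4 or isoproterenol 2 or 3 and 19 without isoproterenol 4, and increases at 1 without saline 1, 2, 3 or 4 or isoproterenol 3. Pink1, a kinase that marks damaged mitochondria, fell from 469.5, 399, 402 and 415 to 44.1, 91.3, 121 and 180.4 CPM (-2.12), graded from isoproterenol 1 up to isoproterenol 4. Nrf1, a transcription factor of mitochondrial genes, rose from 17.6–21.4 to 25.9–33.2 CPM (0.58), while Tfam, which packages mitochondrial DNA, was at 49.6–58.8 CPM with saline and 27.7–64.1 CPM with isoproterenol and was not called, but fell without isoproterenol 4 (log2 fold change -0.74, limma adjusted p = 0.00551).

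Fuel pathways that feed the chain fell as well. In the citric acid cycle and pyruvate entry, 17 of 28 genes fell and none rose (median -1.95, treated libraries at -3.59, -2.31, -1.60 and -0.39), a count of 6 to 9 without saline 1, 2, 3 or 4 or isoproterenol 2. Idh2, the mitochondrial NADP-linked isocitrate dehydrogenase, stood at 1005, 987, 1003 and 967 CPM with saline and 77.7, 78.0, 163 and 251 CPM with isoproterenol (log2 fold change -2.98 ± 0.38 (SE), limma adjusted p = 0.00128). Suclg1, a succinyl-CoA ligase subunit, stood at 1479, 1754, 1406 and 1780.1 CPM with saline and 64.0, 164, 303 and 669 CPM with isoproterenol (-2.89). In both the treated libraries were separated from saline, with isoproterenol 4 the closest. Fh1, fumarase, fell from 787–1009 to 67.0–403 CPM (-2.35) and Pdha1, a pyruvate dehydrogenase subunit, from 1037–1790.3 to 109–738 CPM (-2.17). Pdk4, which shuts pyruvate dehydrogenase off, spanned 33.3–5785 CPM with isoproterenol against 1100.5–3826 CPM with saline and was not called (limma adjusted p = 0.506).

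Breakdown of branched-chain amino acids, a fuel of brown fat, was among the steadier decreases. Of 20 genes 16 fell and none rose (median -1.82), 13 of them in all 8 fits with 1 library left out, and the count was 13 to 20 with any 1 library left out. Bckdha, a subunit of the dehydrogenase that commits the pathway, stood at 189, 211, 167 and 217 CPM with saline and 8.85, 24.3, 52.4 and 95.4 CPM with isoproterenol (log2 fold change -2.60 ± 0.63 (SE), limma adjusted p = 0.0153). Ppm1k, the phosphatase that activates that dehydrogenase, stood at 44.9, 58.9, 30.8 and 40.4 CPM with saline and 13.5, 10.9, 9.98 and 12.98 CPM with isoproterenol (-1.86). For Ppm1k the 4 treated libraries were nearly level. Bcat2, the mitochondrial transaminase of the pathway's opening step, fell from 219–294 to 68.1–146 CPM (-1.32), and Aldh6a1 and Pccb, near its end, from 962–1183 to 63.8–397 CPM (-2.84) and from 759–862 to 38.7–285 CPM (-2.83).

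Genes of fatty acid uptake and oxidation stood at very different levels in the treated libraries. Of 36 genes 8 fell and 3 rose, with treated libraries at medians of -3.61, -1.35, -0.67 and 0.41. The falling count was 2 to 3 without saline 1, 2, 3 or 4 or isoproterenol 2 and 19 without isoproterenol 4 and the rising count 5 without isoproterenol 1. Cpt1a, the carnitine transferase isoform of liver and many other tissues, rose from 32.4, 21.98, 44.8 and 26.3 to 132, 232, 147 and 218 CPM (log2 fold change 2.54 ± 0.27 (SE), limma adjusted p = 0.000629). Cpt1b, the isoform of muscle and brown fat, stood at 28.0, 20.7, 22.3 and 21.9 CPM with saline and 0.571, 7.17, 9.56 and 29.1 CPM with isoproterenol and was not called (log2 fold change -1.98, limma adjusted p = 0.154). The rise of Cpt1a was seen in all 4 treated libraries, while Cpt1b was low in isoproterenol 1 to 3 and above the saline range in isoproterenol 4. Cpt1b fell without isoproterenol 4 (log2 fold change -2.75, limma adjusted p = 0.0334). Echs1, the enoyl-CoA hydratase, fell from 1106–1473 to 89.6–657 CPM (-2.43) and Etfb, which passes electrons from oxidation to the chain, from 129–178 to 9.51–59.1 CPM (-2.61). Fabp5, a fatty acid carrier found in macrophages and adipocytes, rose from 75.4–105 to 183–1085 CPM (2.16), highest in isoproterenol 1. Acsl4, an acyl-CoA synthetase for polyunsaturated fatty acids, rose from 28.2–38.5 to 56.6–120.2 CPM (1.26).

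Genes of fat synthesis fell in part. Of 25 genes of fatty acid and triglyceride synthesis 8 fell and none rose (median -1.09), and the count was 6 to 11 with any 1 library left out. Acly, which makes cytosolic acetyl-CoA, stood at 546, 2167, 741 and 1649 CPM with saline and 262, 248, 220.2 and 181 CPM with isoproterenol (log2 fold change -2.28 ± 0.44 (SE), limma adjusted p = 0.00637). The saline libraries themselves fell into a low pair, saline 1 and 3, and a high pair, saline 2 and 4, and the treated libraries were below both. Fasn, fatty acid synthase, had the same order at 2029, 10684, 5066 and 10672 CPM with saline and 1033, 529.6, 1237 and 969.9 CPM with isoproterenol (-2.70). Acaca, acetyl-CoA carboxylase, fell from 379.6–1433 to 96.8–232 CPM (-2.18) and Thrsp, a lipogenic regulator, from 1780.2–3538 to 118–339 CPM (-3.83). Of 19 genes of lipolysis and lipid droplets 4 fell and 2 rose, with decreases at 1 to 2 without saline 1, 2 or 4 and 9 without isoproterenol 4 and increases at 1 without saline 1, 2 or 4 or isoproterenol 2, 3 or 4. Plin3, a droplet coat protein, fell from 135–284 to 68.3–117 CPM (-1.09) and Hilpda, an inhibitor of the lipase ATGL, rose from 7.33–11.9 to 14.9–42.4 CPM (1.72). Pnpla2, which encodes ATGL, stood at 5549, 5319, 5065 and 5495 CPM with saline and 307, 1874, 2687 and 5704 CPM with isoproterenol and was not called (limma adjusted p = 0.146), with isoproterenol 4 above the saline range. It fell without isoproterenol 4 (log2 fold change -2.21, limma adjusted p = 0.0357).

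Among 21 genes of cholesterol synthesis and uptake 5 rose and 4 fell, with increases at 1 to 3 without saline 1, 2, 3 or 4 or isoproterenol 2 or 4 (3 with quantile normalization) and decreases at 3 to 4 with any 1 library left out. Fdft1, squalene synthase, fell from 114, 237, 152 and 157 to 16.2, 31.1, 16.5 and 25.1 CPM (log2 fold change -2.90 ± 0.28 (SE), limma adjusted p = 0.000499). Of 25 genes of glucose uptake and glycolysis 5 rose and 7 fell, with increases at 3 without saline 1 or 2 or isoproterenol 3 and decreases at 4 without saline 2 and 13 without isoproterenol 4. Transporter isoforms moved in opposite directions. Beside the fall of Slc2a4 given above, Slc2a1, the glucose transporter found in most cell types, rose from 14.7, 16.7, 13.4 and 14.8 to 43.8, 86.4, 38.6 and 47.4 CPM (log2 fold change 1.79 ± 0.24 (SE), limma adjusted p = 0.00171). Hk3, a hexokinase of myeloid cells, rose from 2.64–5.88 to 22.9–312 CPM (4.48), while Pfkm, the phosphofructokinase of muscle, fell from 168–231 to 15.1–53.4 CPM (-2.58).

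Nearly all macrophage genes rose. Of 21 measured 20 rose and none fell, with a median log2 fold change of 2.67 and treated libraries at 3.74, 2.17, 3.40 and 1.26, and the count was 16 to 20 with any 1 library left out. Adgre1, which encodes the macrophage surface marker F4/80, stood at 19.6, 15.7, 31.2 and 10.1 CPM with saline and 398, 104, 313 and 52.2 CPM with isoproterenol (log2 fold change 3.19 ± 0.64 (SE), limma adjusted p = 0.0078). Cd68, a lysosomal glycoprotein of phagocytes, stood at 18.1, 22.5, 28.5 and 15.5 CPM with saline and 1038, 384, 730.4 and 192 CPM with isoproterenol (log2 fold change 4.56 ± 0.48 (SE), limma adjusted p = 0.000632). In both, the order of the treated libraries was isoproterenol 1, 3, 2 and 4 from high to low, and all were above saline. Fcgr1, a high-affinity receptor for antibodies, went from 2.50–6.75 to 33.1–416 CPM (5.03), Msr1, a scavenger receptor, from 2.58–3.68 to 35.3–321 CPM (5.20) and Itgam, an integrin of myeloid cells, from 3.00–3.91 to 18.7–183 CPM (4.14). The exception was Cx3cr1, the fractalkine receptor, at 3.90, 3.08, 2.98 and 1.84 CPM with saline and 16.5, 1.67, 6.84 and 0.802 CPM with isoproterenol, where the groups overlapped (log2 fold change 0.30).

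Genes of the lipid-loaded macrophages of fat rose widely, those of resident macrophages in part. Among 18 lipid-associated macrophage genes 15 rose and none fell (median 2.15), a count of 12 to 15 with any 1 library left out. Gpnmb, a membrane glycoprotein of lipid-loaded phagocytes, stood at 10.6, 10.8, 31.5 and 10.5 CPM with saline and 3576, 522, 1244 and 253 CPM with isoproterenol (log2 fold change 5.97 ± 0.76 (SE), limma adjusted p = 0.0013). Trem2, the lipid-sensing receptor of these cells, stood at 2.69, 4.50, 8.63 and 2.18 CPM with saline and 227, 60.6, 188 and 35.1 CPM with isoproterenol (log2 fold change 4.63 ± 0.66 (SE), limma adjusted p = 0.00197). Lgals3, galectin-3, went from 19.8–47.9 to 348–3304 CPM (5.29) and Atp6v0d2, a proton pump subunit, from 0.567–5.08 to 21.0–135 CPM (5.11). All 4 genes were highest in isoproterenol 1 and lowest in isoproterenol 4. Of 10 resident macrophage genes 6 rose (2 to 3 without saline 1, 2, 3 or 4 or isoproterenol 2 or 3; median 1.67), among them Lyve1, a hyaluronan receptor, from 2.25–5.38 to 9.02–20.8 CPM (1.65), and Mrc1, the mannose receptor, from 22.3–38.5 to 53.9–273 CPM (2.04). Timd4, a receptor of long-lived resident macrophages, was at 0.29–0.921 CPM with saline and 0.124–1.36 CPM with isoproterenol and was not called.

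Most monocyte and neutrophil genes rose from low saline levels. Of 10 monocyte genes 7 rose (7 to 8 with any 1 library left out) and of 13 neutrophil genes 10 rose (10 with any 1 library left out), with medians of 4.06 and 4.73. Ly6c2, a surface antigen of inflammatory monocytes, stood at 0.354, 0.999, 3.56 and 3.33 CPM with saline and 207, 20.3, 33.3 and 12.9 CPM with isoproterenol (log2 fold change 4.62 ± 0.98 (SE), limma adjusted p = 0.0093). S100a8, an abundant calcium-binding protein of neutrophils, stood at 0.85, 0.666, 0.726 and 1.26 CPM with saline and 65.2, 69.4, 45.1 and 16.2 CPM with isoproterenol (log2 fold change 5.58 ± 0.46 (SE), limma adjusted p = 0.000377). Cxcr2, the neutrophil chemokine receptor, went from 0–0.354 to 1.67–11.5 CPM (4.73) and Plac8 from 1.35–2.54 to 19.1–162 CPM (4.54). Elane, a protease made by neutrophil precursors, was at 0.23–1.13 CPM with saline and 0.0951–0.432 CPM with isoproterenol and was not called, but fell without isoproterenol 2 (log2 fold change -2.26, limma adjusted p = 0.0411) or without saline 4 (log2 fold change -2.37, limma adjusted p = 0.0306).

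Among lymphocyte genes, 6.67% of T and NK cell genes and 0% of B cell genes rose, against 16.3% of all genes. For mast cell and eosinophil genes the share was 33.3%, with 6 measured. Of 15 T and NK cell genes 1 rose, Il7r, the interleukin-7 receptor, from 1.35, 0.833, 3.41 and 1.84 to 232, 36.0, 59.5 and 13.9 CPM (4.94), and Cd3g and Trac, parts of the T cell receptor complex, were at 0.0618–0.784 and 0.371–1.15 CPM with isoproterenol, 0.25–3.85 and 0.333–3.70 CPM with saline, and were not called (log2 fold changes -1.76 and -0.98). Of 8 B cell genes 4 fell (2 without saline 2), including Cd79a, part of the B cell receptor, from 2.41, 3.25, 1.67 and 1.26 to 0.523, 0.68, 0.784 and 0.451 CPM (-1.73). Among 10 dendritic cell genes 1 rose and 1 fell (0 without saline 1, 3 or 4 or isoproterenol 2 or 3), and among 6 mast cell and eosinophil genes 2 rose (1 without saline 1, 2, 3 or 4 or isoproterenol 1 or 3) and 1 fell, with Clec9a at log2 fold change 1.12, Fcer1a, a chain of the IgE receptor, at 2.74 and Kit, the stem cell factor receptor, at -2.36. The decrease in dendritic cell genes was Zbtb46, a transcription factor also present in endothelium, and its call was lost without saline 1, 3 or 4 or isoproterenol 2 or 3 (limma adjusted p 0.0507 to 0.084).

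Chemokines rose widely, among them attractants of monocytes. Of 25 measured 14 rose and 1 fell, with increases at 13 to 15 with any 1 library left out and decreases at 0 without saline 2 or 4 and 2 without isoproterenol 1. Ccl2, the main monocyte attractant, stood at 4.75, 1.58, 4.06 and 1.72 CPM with saline and 645, 151, 119.9 and 32.3 CPM with isoproterenol (log2 fold change 5.67 ± 0.81 (SE), limma adjusted p = 0.00208). Ccl7, which acts on the same receptor, stood at 1.98, 1.83, 1.96 and 1.84 CPM with saline and 549.9, 119, 111 and 28.7 CPM with isoproterenol (log2 fold change 5.95 ± 0.73 (SE), limma adjusted p = 0.00115). Both were graded from isoproterenol 1 to isoproterenol 4. Cxcl13, which attracts B cells, had another order at 1.13, 2.83, 1.23 and 0.804 CPM with saline and 53.1, 102, 201 and 82.3 CPM with isoproterenol (6.13), highest in isoproterenol 3, and Cxcl10, induced by interferon, another still at 3.82, 2.83, 14.1 and 10.6 CPM with saline and 128, 381, 15.4 and 114 CPM with isoproterenol (3.91), highest in isoproterenol 2 and close to saline in isoproterenol 3. Cxcl1, a neutrophil attractant, went from 0.459–1.42 to 6.84–38.0 CPM (3.87). Ccr2, the receptor for Ccl2, was at 15.02–22.2 CPM with saline and 19.6–304 CPM with isoproterenol and was not called (log2 fold change 1.96, limma adjusted p = 0.0669), with isoproterenol 4 inside the saline range, and rose without isoproterenol 4 (log2 fold change 2.56, limma adjusted p = 0.0108).

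Of 21 cytokine genes and their regulators 14 rose and none fell (9 without saline 4). The antagonist of interleukin-1 was called and the cytokine was not. Il1rn, which blocks the interleukin-1 receptor, stood at 4.60, 7.33, 4.21 and 2.76 CPM with saline and 306, 82.7, 71.5 and 15.8 CPM with isoproterenol (log2 fold change 4.02 ± 0.77 (SE), limma adjusted p = 0.00644), whereas Il1b itself, at 0.345–1.92 CPM with saline and 2.06–45.9 CPM with isoproterenol, was separated but not called (limma adjusted p = 0.072), and rose without isoproterenol 4 (log2 fold change 3.01, limma adjusted p = 0.0309). Il6, a cytokine of many cell types, rose from 0.142, 0.167, 0.0726 and 0.115 to 3.19, 4.26, 0.836 and 0.902 CPM (log2 fold change 3.49 ± 0.61 (SE), limma adjusted p = 0.00433), low in all libraries. Socs3, a feedback inhibitor of cytokine signalling, rose from 5.05–7.47 to 17.1–59.0 CPM (2.65), Nfkbia, the inhibitor of NF-kappaB, from 48.3–60.1 to 131–181 CPM (1.61), and Tnfaip3, another brake on it, from 5.67–8.66 to 22.4–106 CPM (2.56). Tnf was called too (2.69), with its call lost without saline 1, 2, 3 or 4 or isoproterenol 2 or 3 (limma adjusted p 0.0508 to 0.087).

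Interferon-stimulated genes rose, and the list stood above saline in every treated library. Type I interferons signal through a complex that holds STAT2 and IRF9 and binds the interferon-stimulated response element (ISRE) in the promoters of antiviral genes. Of 34 such genes 28 rose and none fell, with a median log2 fold change of 2.11 and treated libraries at 3.15, 1.96, 1.57 and 1.48. The count was 15 without saline 1 or 2. The promoters of 5 members are shown because the list moved together and these windows hold the element. They are from RefSeq (build GRCm38.p6; the deposited reads were aligned to mm39, and no coordinates are carried between the builds), 5′ to 3′ on the gene's strand, with matches to GAAANNGAA on either strand in capitals.
Isg15 (chr4:156200861-156200911, minus strand): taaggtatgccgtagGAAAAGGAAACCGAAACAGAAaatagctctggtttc
Ifit3 (chr19:34583359-34583450, plus strand): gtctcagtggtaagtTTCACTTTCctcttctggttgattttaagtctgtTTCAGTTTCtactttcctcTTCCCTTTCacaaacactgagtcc
Rsad2 (chr12:26456548-26456586, minus strand): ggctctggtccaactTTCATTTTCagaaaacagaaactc
Oas1a (chr5:120907526-120907560, minus strand): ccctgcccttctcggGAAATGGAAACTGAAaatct
Stat2 (chr10:128270262-128270300, plus strand): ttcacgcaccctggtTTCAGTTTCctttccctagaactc
All 5 stretches lie upstream of the gene's own transcript, within the 250 bases before its start. The matches overlap one another in Isg15, which holds 3, and in Oas1a, which holds 2, and Ifit3 has 3 apart. Across 27025 genes with a 300-base window, 9.76% held these letters at least at 1 place, against 17 of the 26 interferon genes with a window (65.4%). A match is a description of the letters and not of binding.

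Isg15, a ubiquitin-like modifier, stood at 7.08, 4.50, 23.6 and 24.8 CPM with saline and 194, 75.2, 50.3 and 54.2 CPM with isoproterenol (log2 fold change 2.76 ± 0.64 (SE), limma adjusted p = 0.0134). Rsad2, the antiviral enzyme viperin, stood at 33.7, 32.4, 108 and 56.5 CPM with saline and 419, 479, 148 and 240.2 CPM with isoproterenol (log2 fold change 2.51 ± 0.48 (SE), limma adjusted p = 0.00632), and Oas1a, a sensor that makes oligoadenylate, at 3.33, 2.91, 6.39 and 7.12 CPM with saline and 148, 32.7, 45.3 and 19.5 CPM with isoproterenol (log2 fold change 3.30 ± 0.59 (SE), limma adjusted p = 0.00505). All treated libraries were above all saline libraries for the 3 genes, and the saline libraries were uneven, higher in replicates 3 and 4 than in 1 and 2. Irf7, the amplifier of the interferon response, went from 15.8–95.9 to 286–684 CPM (3.35), Oas3 from 0.666–3.48 to 20.7–192 CPM (4.89) and Mx1, an antiviral GTPase, from 0.916–5.88 to 20.3–232 CPM (4.34). Stat2 rose from 37.1–66.1 to 86.1–279 CPM (1.37) and Ifit3 from 9.66–54.4 to 90.8–282 CPM (2.41). Calls were lost for Stat2 without saline 1 or 2 (adjusted p 0.0594 to 0.0646) and Ifit3 without saline 1 or 2 (0.0559 to 0.0597). Summed macrophage levels were in the order of isoproterenol 1, 3, 2 and 4, given above, and their part in these values was not tested.

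**Figure D3:**
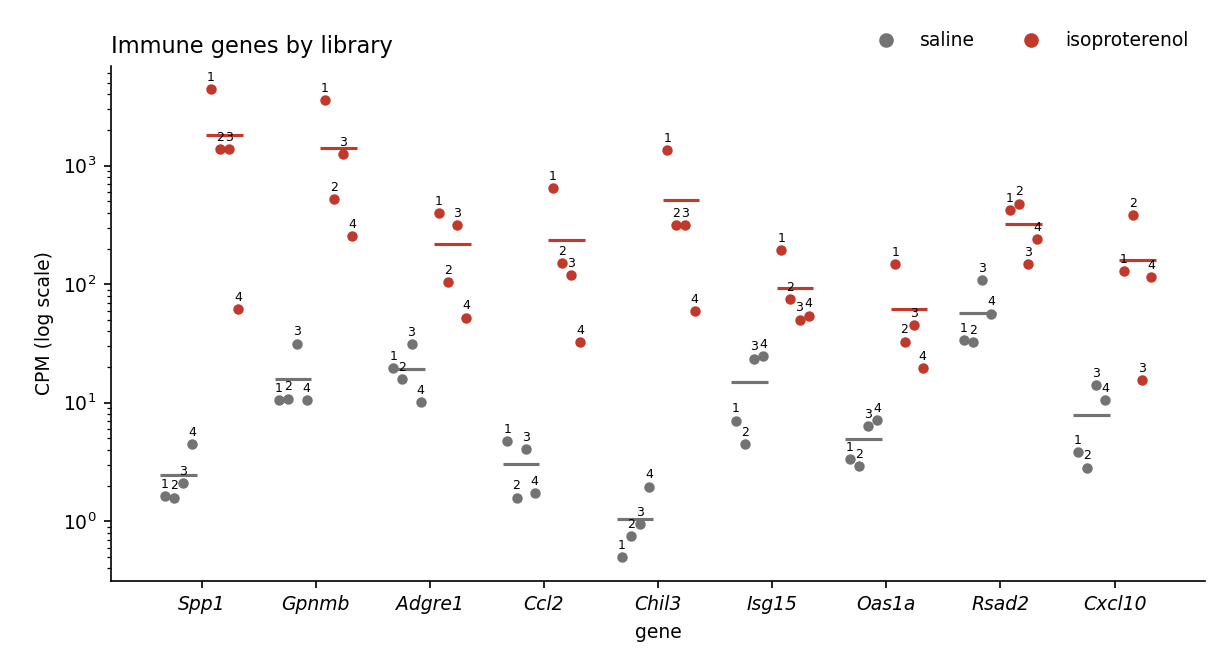
CPM (y, log scale) of 9 immune genes (x) in the 4 saline and 4 isoproterenol libraries of Ucp1-knockout mice; each point is 1 library, numbered by replicate, and bars mark group means. For all 9 genes every isoproterenol library lies above every saline library, and isoproterenol 1 is the highest for Spp1, Gpnmb, Adgre1, Ccl2, Chil3, Isg15 and Oas1a.

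Of 23 antigen presentation genes 7 rose and none fell (2 to 3 without saline 1, 2, 3 or 4 or isoproterenol 3 and 11 without isoproterenol 4, and 11 with scaling by library totals), and those that rose were H2-D1, H2-Q4, H2-T23, B2m and Tapbp of class I and its loading, the class I regulator Nlrc5 and the co-stimulator Cd80. H2-T23, a non-classical class I molecule, stood at 52.5, 54.2, 84.5 and 99.4 CPM with saline and 385, 177, 236 and 194 CPM with isoproterenol (log2 fold change 1.76 ± 0.30 (SE), limma adjusted p = 0.00435). Class II genes were not called, and a difference between the classes was not tested. H2-Aa was at 149.9, 118, 239 and 163 CPM with saline and 222, 58.8, 168 and 38.8 CPM with isoproterenol, with isoproterenol 2 and 4 below the saline range and isoproterenol 1 and 3 inside it (log2 fold change -0.75). Calls were lost for H2-D1 without saline 1, 2, 3 or 4 or isoproterenol 3 (adjusted p 0.0505 to 0.0708), H2-Q4 without saline 1, 2, 3 or 4 or isoproterenol 1 or 3 (0.0513 to 0.119), B2m without saline 1, 2, 3 or 4 or isoproterenol 3 (0.0504 to 0.078), Tapbp without saline 1, 2 or 3 or isoproterenol 2 or 3 (0.0523 to 0.0746) and Nlrc5 without saline 1, 2 or 4 (0.0625 to 0.0833).

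Genes of inflammasomes and cell death rose, 21 of 29 with none lower and a median of 1.40 (16 to 23 with any 1 library left out). The necroptosis pair Ripk3 and Mlkl, kinase and pore-forming effector, rose from 8.07, 4.75, 7.26 and 5.17 to 51.7, 26.6, 24.3 and 14.9 CPM (log2 fold change 2.10 ± 0.37 (SE), limma adjusted p = 0.00443) and from 6.09, 7.24, 7.47 and 8.73 to 54.6, 31.1, 25.0 and 22.8 CPM (log2 fold change 2.09 ± 0.28 (SE), limma adjusted p = 0.00154). Both were highest in isoproterenol 1 and separated in every library. Casp1, the inflammasome protease, rose from 2.69–4.21 to 7.37–61.1 CPM (2.65), and its adaptor Pycard from 1.81–2.53 to 4.06–42.5 CPM (2.75). Zbp1, a nucleic acid sensor, rose from 2.17–10.3 to 28.8–189 CPM (3.64). Genes that promote apoptosis and genes that restrain it both rose. Bax went from 15.5–20.1 to 23.4–75.4 CPM (1.32) and Bcl2l1, which restrains it, from 52.5–69.9 to 102–158 CPM (1.09).

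The integrated stress response, in which ATF4 switches on amino acid supply, was called in part. Of 32 genes 11 rose and 2 fell, with increases at 9 to 12 with any 1 library left out and decreases at 1 without saline 2 or 4 or isoproterenol 3 and 7 without isoproterenol 4. Gdf15, a hormone of stressed cells, stood at 1.77, 1.67, 1.45 and 0.804 CPM with saline and 52.7, 222, 40.3 and 104 CPM with isoproterenol (log2 fold change 5.89 ± 0.52 (SE), limma adjusted p = 0.000417). Atf3, a stress-induced transcription factor, stood at 33.8, 13.1, 21.6 and 4.37 CPM with saline and 259, 352, 76.7 and 66.6 CPM with isoproterenol (log2 fold change 3.36 ± 0.73 (SE), limma adjusted p = 0.0106). Both were highest in isoproterenol 2. Slc7a5, a carrier of large neutral amino acids, rose from 0.999–3.12 to 10.6–23.1 CPM (2.96) and Ddit4, an inhibitor of mTORC1, from 21.3–35.0 to 41.4–201 CPM (1.93). Within serine synthesis the enzymes diverged, Psat1 rising from 7.08–14.9 to 29.8–56.3 CPM (1.87) and Phgdh falling from 48.3–93.9 to 7.41–18.2 CPM (-2.33). Fgf21, an endocrine factor of this response, was at 0.85, 0.333, 2.54 and 1.84 CPM with saline and 0.0951, 9.33, 3.81 and 14.5 CPM with isoproterenol and was not called (limma adjusted p = 0.501). It was low in isoproterenol 1, above every saline library in the other treated libraries, and rose without isoproterenol 1 (log2 fold change 2.83, limma adjusted p = 0.0151). Nupr1, a small chromatin protein of the stress response, fell from 57.0, 77.4, 42.5 and 81.9 to 37.8, 41.6, 28.7 and 22.7 CPM (-0.98). Its promoter (chr7:126625558-126625596, minus strand; RefSeq, GRCm38.p6) is shown because it holds the letters TGATGNAAT of the element bound by ATF4 and CHOP, in capitals as they lie on the opposite strand: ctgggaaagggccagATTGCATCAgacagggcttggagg. Nupr1 lost its call without saline 2 or 4 or isoproterenol 3 (limma adjusted p 0.0597 to 0.0673). Of all windows 1.08% held these letters, against 4 of 29 in the list (13.8%).

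Protein folding in the endoplasmic reticulum rose, 14 of 23 genes with 1 lower and a median of 0.76 (5 to 9 without saline 1, 2, 3 or 4 or isoproterenol 2 or 3). Decreases numbered 0 without saline 2, 3 or 4 or isoproterenol 1, 2 or 3. Pdia4, a disulfide isomerase, stood at 36.6, 46.1, 40.1 and 44.6 CPM with saline and 299.6, 97.6, 159 and 67.4 CPM with isoproterenol (log2 fold change 1.67 ± 0.40 (SE), limma adjusted p = 0.0154). Sdf2l1, a cofactor of the chaperone BiP, rose from 2.54–5.45 to 8.82–90.8 CPM (3.11) and Manf, a secreted folding factor, from 20.7–32.9 to 54.2–135 CPM (1.74). Hspa5, which encodes BiP, rose from 458–624 to 669–1576 CPM (1.02), a call lost without saline 1, 2, 3 or 4 or isoproterenol 1, 2 or 3 (limma adjusted p 0.0594 to 0.112). Ddit3, which encodes CHOP, was at 20.5–51.3 CPM with saline and 28.2–37.1 CPM with isoproterenol and was not called. Of 13 cytosolic heat shock genes 4 rose and none fell (3 to 4 with any 1 library left out), among them Hspa1a, an inducible HSP70, at 1.70, 0.666, 2.18 and 1.26 CPM with saline and 11.4, 19.1, 5.17 and 3.56 CPM with isoproterenol (log2 fold change 2.54 ± 0.57 (SE), limma adjusted p = 0.0119), again highest in isoproterenol 2.

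Of 32 genes of the NRF2 pathway and antioxidant defence 8 rose and 6 fell (25.0% and 18.8%, against 16.3% and 17.5% of all genes), with increases at 6 to 11 with any 1 library left out and decreases at 5 to 9 with any 1 library left out. Hmox1, heme oxygenase, stood at 19.4, 12.7, 22.7 and 14.6 CPM with saline and 411, 1148, 444 and 461 CPM with isoproterenol (log2 fold change 5.04 ± 0.35 (SE), limma adjusted p = 0.000222). Nqo1, a quinone reductase, stood at 3.68, 2.58, 3.12 and 3.91 CPM with saline and 6.66, 48.8, 21.4 and 48.8 CPM with isoproterenol (log2 fold change 2.86 ± 0.59 (SE), limma adjusted p = 0.00853). Each was separated in all 4 treated libraries, with isoproterenol 2 highest or level with isoproterenol 4. Gsr, glutathione reductase, rose from 22.6–27.4 to 84.6–227 CPM (2.23), and Gpx4, the peroxidase that protects membrane lipids, fell from 585–696 to 73.4–279 CPM (-1.96). Gpx3, a secreted glutathione peroxidase, had the largest decrease of the list, from 6538, 4178, 4588 and 4283 to 212, 386, 734 and 539 CPM (-3.50). Gclm, which raises glutathione synthesis, rose (0.91), and its promoter (chr3:122245408-122245446, plus strand) is shown because it holds the letters TGACNNNGC of the antioxidant response element, shown in capitals as they lie on the opposite strand in RefSeq GRCm38.p6: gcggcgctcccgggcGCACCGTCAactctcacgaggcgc. These letters were in 14.0% of all windows, in 10 of 26 in the list (38.5%) and in 7 of 29 of the integrated stress response (24.1%). Gclm lost its call without saline 1, 2, 3 or 4 or isoproterenol 2 or 3 (limma adjusted p 0.0527 to 0.0745).

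Iron genes included 5 that rose and 4 that fell among 20, with increases at 4 to 6 with any 1 library left out and decreases at 2 without saline 1, 2 or 4. Ftl1, the ferritin light chain, stood at 57.7, 53.7, 58.2 and 67.8 CPM with saline and 344, 358, 268 and 177 CPM with isoproterenol (log2 fold change 2.22 ± 0.23 (SE), limma adjusted p = 0.000564), and Slc40a1, the iron exporter ferroportin, at 42.6, 77.6, 55.6 and 59.5 CPM with saline and 24.7, 21.2, 16.3 and 36.3 CPM with isoproterenol (log2 fold change -1.28 ± 0.27 (SE), limma adjusted p = 0.00892). Cp, the ferroxidase ceruloplasmin, rose from 36.4–46.5 to 102–276 CPM (1.83) and Tfrc, the transferrin receptor, fell from 84.8–467 to 42.1–134 CPM (-1.96). Tfrc lost its call without saline 1, 2 or 4 or isoproterenol 3 (limma adjusted p 0.0634 to 0.0752). Of 18 hypoxia genes 5 rose and 3 fell, with increases at 8 without isoproterenol 4 and decreases at 6 without isoproterenol 4. Hif1a, the oxygen-regulated transcription factor, rose from 69.1, 61.4, 78.3 and 67.8 to 148, 157, 118 and 159 CPM (1.07), and Egln1, the hydroxylase that marks it for destruction, fell from 270.0, 304, 241 and 271 to 49.2, 56.8, 100.3 and 180.2 CPM (-1.68).

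Targets of p53 rose in 10 of 17 cases, with 1 lower and a median of 1.08 (7 to 11 with any 1 library left out). Cdkn1a, the cell cycle inhibitor p21, stood at 131, 48.5, 85.0 and 50.3 CPM with saline and 181, 561, 359.8 and 542 CPM with isoproterenol (log2 fold change 2.38 ± 0.44 (SE), limma adjusted p = 0.00567), lowest among treated libraries in isoproterenol 1. Mdm2, which degrades p53, rose from 51.5–65.1 to 96.8–162 CPM (1.08). The gene that fell was Phlda3, an inhibitor of AKT, from 368–585 to 52.9–173 CPM (-2.03). Cell cycle genes rose at the same time, 15 of 38 with none lower and a median of 1.43, although treated libraries stood at 2.77, 0.89, 1.45 and 0.32 and the count was 8 to 9 without saline 1 or 2 or isoproterenol 3 and 27 without isoproterenol 4. The 8 that kept their call in all 8 fits, Cdt1, Mcm2, Mcm5, Mcm6, Mcm7, E2f1, Tyms and Rrm1, belong to DNA replication and nucleotide supply. Mcm5, part of the replicative helicase, stood at 6.09, 5.41, 6.10 and 5.17 CPM with saline and 47.3, 20.4, 24.4 and 8.92 CPM with isoproterenol (log2 fold change 1.91 ± 0.43 (SE), limma adjusted p = 0.0124) and Cdt1, which loads it, rose from 1.58–3.92 to 7.32–32.6 CPM (2.85). Mki67, a marker of dividing cells, was at 5.03, 6.08, 7.33 and 5.97 CPM with saline and 88.3, 8.46, 17.8 and 5.61 CPM with isoproterenol and was not called (limma adjusted p = 0.163), with isoproterenol 4 inside the saline range. It rose without isoproterenol 4 (log2 fold change 1.96, limma adjusted p = 0.0486).

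Of 30 fibrillar and basement membrane genes 14 rose and none fell (8 to 9 without saline 1, 2, 3 or 4). Col4a1, a basement membrane collagen, stood at 879, 675, 722 and 636 CPM with saline and 1772, 2037, 2283 and 2023 CPM with isoproterenol (log2 fold change 1.48 ± 0.26 (SE), limma adjusted p = 0.0042), and Col5a3, a collagen V chain, at 96.6, 114, 102 and 79.7 CPM with saline and 336, 404, 467 and 432 CPM with isoproterenol (log2 fold change 2.06 ± 0.18 (SE), limma adjusted p = 0.000377). In both, the treated libraries were close together and all above saline. The main fibrillar collagens were not called: Col1a1 was at 194, 268, 248 and 257 CPM with saline and 1032, 159, 849.9 and 157 CPM with isoproterenol and Col3a1 at 691, 905, 772 and 639.6 CPM with saline and 3273, 413, 1724 and 265 CPM with isoproterenol. Both were high in isoproterenol 1 and 3 and below saline in 2 and 4. Thbs1 and Thbs2, thrombospondins, rose from 43.1, 28.1, 27.6 and 13.3 to 1108, 389, 324 and 114 CPM (3.78) and from 8.14, 8.24, 9.65 and 5.74 to 66.8, 54.9, 64.6 and 56.1 CPM (2.94), with a wide range for Thbs1 and a narrow one for Thbs2.

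Matrix processing genes rose in 18 of 31 cases with none lower and a median of 1.56 (13 to 23 with any 1 library left out). Timp1, an inhibitor of matrix metalloproteinases, stood at 0.992, 0.666, 1.45 and 0.804 CPM with saline and 129, 55.6, 48.6 and 16.9 CPM with isoproterenol (log2 fold change 5.65 ± 0.55 (SE), limma adjusted p = 0.000499). Lox, which crosslinks collagen and elastin, stood at 25.5, 19.7, 30.7 and 25.5 CPM with saline and 95.1, 86.3, 95.7 and 84.9 CPM with isoproterenol (log2 fold change 1.85 ± 0.15 (SE), limma adjusted p = 0.000367), with the treated libraries nearly equal. Mmp14, a membrane-bound metalloproteinase, rose from 17.8–31.5 to 60.2–194 CPM (1.94) and Mmp3 from 4.25–8.83 to 16.4–65.9 CPM (2.48). Fibroblast and preadipocyte genes rose in 4 of 14 cases (1 to 2 without saline 3 or 4 or isoproterenol 3), the steadiest being Ly6a, a surface antigen of progenitors and endothelium, from 83.4–134 to 426–840.4 CPM (2.49).

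Vessel genes rose in part. Of 18 endothelial genes 6 rose and none fell (4 to 7 with any 1 library left out), with a median of 0.34. Pecam1, an adhesion molecule of endothelium and leukocytes, stood at 252, 187, 222 and 222 CPM with saline and 451, 520.1, 472 and 499 CPM with isoproterenol (log2 fold change 1.14 ± 0.17 (SE), limma adjusted p = 0.00244), and Vwf, the clotting factor of endothelium, at 32.5, 31.5, 46.7 and 38.9 CPM with saline and 96.6, 66.5, 131 and 83.2 CPM with isoproterenol (log2 fold change 1.31 ± 0.23 (SE), limma adjusted p = 0.00422). Of 11 mural cell and smooth muscle genes 4 rose (1 to 2 without saline 1, 2 or 4 or isoproterenol 1 or 3) and 1 fell (2 without isoproterenol 1), with Pdgfrb, the pericyte growth factor receptor, at log2 fold change 0.76 and Cspg4 at -1.24. Among 21 genes of angiogenesis 3 rose (5 without isoproterenol 4) and 5 fell (3 without saline 1, 2 or 4 or isoproterenol 2). Vegfb, a growth factor expressed with mitochondrial genes, fell from 263, 276, 244 and 276 to 15.8, 22.7, 44.4 and 56.5 CPM (log2 fold change -3.10 ± 0.37 (SE), limma adjusted p = 0.000959), and Vegfa, the main angiogenic factor, from 551–876 to 49.9–442 CPM (-2.08). Vegfa lost its call without saline 1, 2 or 4 or isoproterenol 2 (limma adjusted p 0.058 to 0.0691).

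Schwann cell and nerve genes gave 3 increases (2 to 4 with any 1 library left out) and 1 decrease among 10. The decrease was S100b, a calcium-binding protein also made by adipocytes, from 92.5, 165, 89.3 and 126 to 11.4, 13.8, 15.4 and 38.0 CPM (log2 fold change -2.71 ± 0.38 (SE), limma adjusted p = 0.0018). Of 4 keratinocyte genes 2 rose (0 to 1 without saline 1, 2, 3 or 4 or isoproterenol 2 or 4), among them Lor, loricrin, which was at 0.567, 0.666, 0.871 and 0.689 CPM with saline and 2.66, 283, 10.9 and 10.3 CPM with isoproterenol and lost its call without saline 1, 2 or 4 (limma adjusted p 0.0535 to 0.0559).

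Ligands, receptors and inhibitors of the BMP and TGF-beta family, to which Gdf10 belongs, were followed in 43 genes. Of these 11 rose and none fell (6 to 7 without saline 1, 2 or 4 or isoproterenol 2), with a median of 0.49. Among ligands, Gdf15 and Bmp8b rose as described, and Bmp1, a protease that frees ligands and trims collagen, rose from 34.4–42.8 to 70.8–178 CPM (1.56). Among receptors, Acvr1b, an activin type I receptor, stood at 19.3, 18.4, 15.7 and 18.5 CPM with saline and 49.0, 53.1, 46.1 and 48.8 CPM with isoproterenol (log2 fold change 1.45 ± 0.12 (SE), limma adjusted p = 0.000377) and Acvrl1, an endothelial receptor of the family, rose from 36.1–56.5 to 66.6–105 CPM (0.81) with its co-receptor Eng, from 129–278 to 386–608 CPM (1.18). The treated libraries were nearly level for Acvr1b. Acvr1c, the type I receptor of adipocytes, was at 94.6, 123, 79.7 and 87.2 CPM with saline and 12.7, 24.3, 56.8 and 94.3 CPM with isoproterenol, with isoproterenol 4 inside the saline range and the other treated libraries below it, and was not called (log2 fold change -1.40). It fell without isoproterenol 4 (log2 fold change -1.87, limma adjusted p = 0.0116).

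Secreted factors of fat moved in both directions, 11 of 41 higher and 13 lower (increases 9 to 13 with any 1 library left out; decreases 7 to 8 without saline 2 or 4 or isoproterenol 2). Besides Nrg4, Vegfb and Pm20d1, those that fell included Fgf1, from 38.2–51.3 to 7.75–28.2 CPM (-1.71), Angptl2, an angiopoietin-like protein, from 196–279 to 82.5–109 CPM (-1.36), and Nampt, which makes a precursor of NAD, from 429–587 to 154–263 CPM (-1.26). Those that rose included Saa3, an acute-phase protein of fat, at 0.283, 0.167, 0.798 and 0.574 CPM with saline and 54.3, 54.5, 32.4 and 26.3 CPM with isoproterenol (log2 fold change 6.53 ± 0.47 (SE), limma adjusted p = 0.000287), Serpina3n, a protease inhibitor, from 5.74–14.99 to 183–440.2 CPM (4.94), Metrnl from 9.28–15.5 to 24.7–197 CPM (2.62) and Cxcl14, a chemokine released by brown fat, from 11.9–17.1 to 35.4–79.4 CPM (1.79). Saa3 was separated in every library and differed little among the treated ones.

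Prostaglandin genes rose in 11 of 23 cases and fell in 2 (increases 7 without saline 2 or isoproterenol 3; decreases 2 to 3 with any 1 library left out). Ptgs2, the inducible cyclooxygenase, stood at 0.212, 0.333, 0.0726 and 0.115 CPM with saline and 11.4, 5.81, 3.40 and 16.7 CPM with isoproterenol (log2 fold change 5.27 ± 0.58 (SE), limma adjusted p = 0.000719). Pla2g4a, the phospholipase that frees arachidonic acid, stood at 1.49, 0.916, 2.18 and 0.689 CPM with saline and 25.8, 18.7, 17.2 and 19.9 CPM with isoproterenol (log2 fold change 4.02 ± 0.35 (SE), limma adjusted p = 0.00038). Both rose in all treated libraries, and Pla2g4a was nearly level among them. Hpgds and Ptgds, which make the same prostaglandin in hematopoietic and other cells, went in opposite directions, Hpgds from 2.18–6.16 to 11.1–51.7 CPM (2.39) and Ptgds as given above. The receptor Ptger3 fell from 34.9–58.0 to 7.48–21.3 CPM (-1.86) while Ptger2 rose from 2.75–5.01 to 8.59–14.0 CPM (1.55).

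Lysosomal genes rose in 22 of 28 cases with none lower and a median of 1.19 (16 to 25 with any 1 library left out). Ctss, a protease of antigen-presenting cells, stood at 34.6, 27.1, 74.7 and 34.9 CPM with saline and 2285, 512, 1217 and 275 CPM with isoproterenol (log2 fold change 4.32 ± 0.63 (SE), limma adjusted p = 0.00222), in the order of the macrophage genes. Gla, a galactosidase, stood at 9.07, 6.91, 7.62 and 8.04 CPM with saline and 139, 153, 68.4 and 50.2 CPM with isoproterenol (log2 fold change 3.55 ± 0.35 (SE), limma adjusted p = 0.000499), with another order. Lamp2, a membrane protein of all lysosomes, rose from 209–245 to 419–549 CPM (1.03) and Atp6v1a, a subunit of the proton pump, from 108–138 to 284–469 CPM (1.44). The summed macrophage level moved with this list, and its part was not tested.

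Clock genes gave 6 decreases and 2 increases among 19 (decreases 5 to 7 with any 1 library left out; increases 0 to 1 without saline 2, 3 or 4 or isoproterenol 2 or 3 and 5 without isoproterenol 1). The decreases included outputs of the clock. Dbp, a PAR-domain transcription factor, stood at 19.8, 57.0, 40.1 and 76.0 CPM with saline and 4.33, 9.58, 10.1 and 7.07 CPM with isoproterenol (log2 fold change -2.54 ± 0.43 (SE), limma adjusted p = 0.00414), its relatives Hlf and Tef fell from 61.8–97.0 to 4.52–13.5 CPM (-3.18) and from 231–391 to 59.6–203 CPM (-1.51), and Per3 from 50.1–152 to 19.6–29.7 CPM (-1.94). Arntl, the core activator, rose (1.61) with overlap between the groups, a call lost without saline 2, 3 or 4 or isoproterenol 2 (limma adjusted p 0.0587 to 0.0637). The labels give no time of day for tissue collection. Of 23 immediate early genes 8 rose and none fell (5 without saline 4), among them Myc at 23.9, 12.3, 26.1 and 10.6 CPM with saline and 42.1, 87.5, 49.6 and 47.8 CPM with isoproterenol (log2 fold change 1.68 ± 0.35 (SE), limma adjusted p = 0.00887) and Klf6 from 56.9–95.9 to 143–352 CPM (1.40), whereas Egr1, a quick sensor of stimulation, was at 97.5, 337, 31.9 and 23.7 CPM with saline and 44.8, 90.4, 65.8 and 45.6 CPM with isoproterenol, most uneven among the saline libraries, and was not called. Cytosolic ribosomal proteins rose in 16 of 44 cases with none lower, by small amounts (median 0.49; 4 to 9 without saline 1, 2, 3 or 4 or isoproterenol 2 or 3 and 29 without isoproterenol 4). The count was 27 with scaling by library totals, 24 with quantile normalization, 9 with voomaByGroup, 31 with all 16 libraries and 39 with array weights. The last fit rests mostly on isoproterenol 3 among the treated libraries (weight 3.79, against 0.26 to 0.49 for the others). Rpl6 went from 103–133 to 162–237 CPM (0.75).

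**Figure D4:**
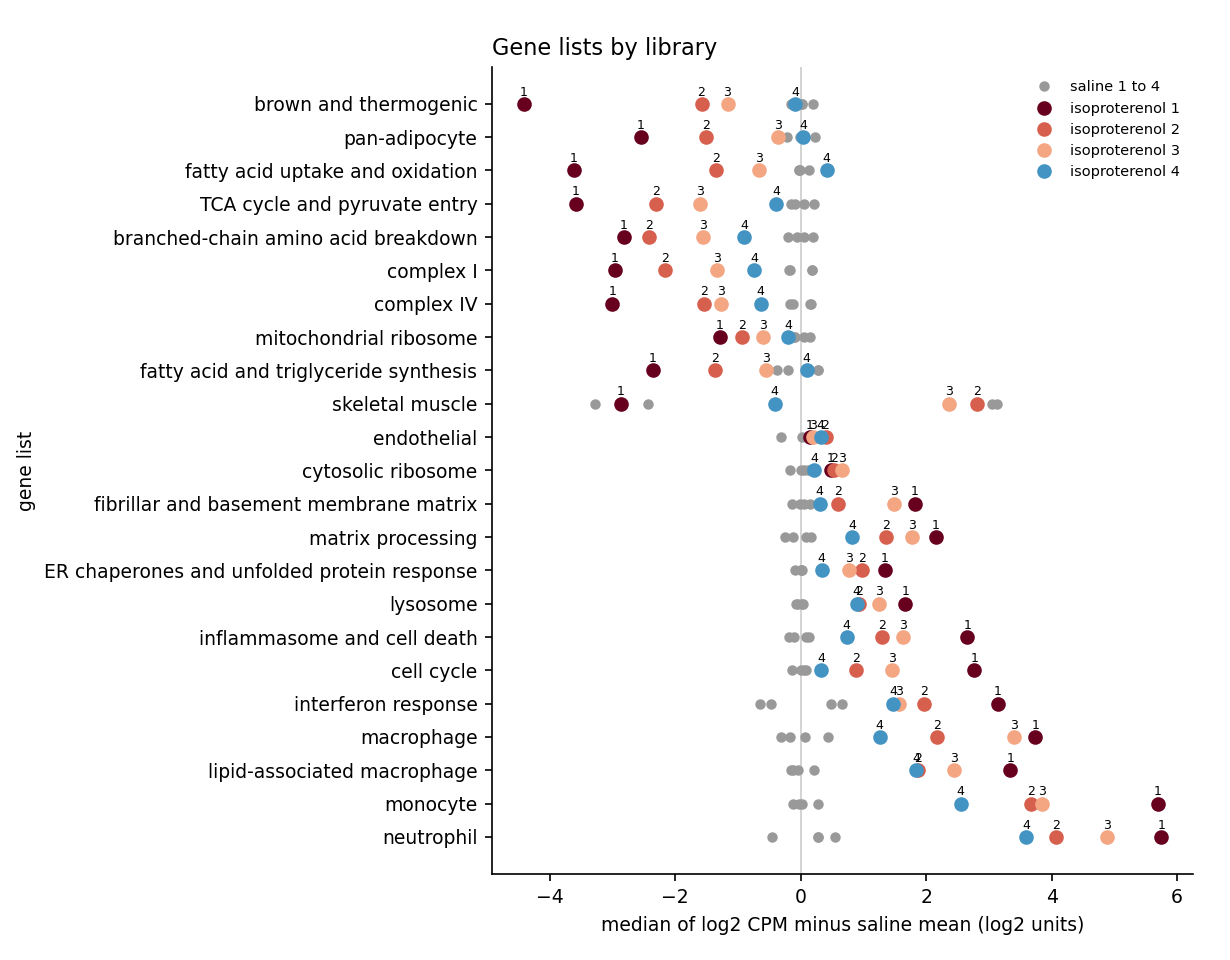
Median log2 CPM of the gene lists named on the y axis in each knockout library, relative to the mean of the 4 saline libraries (x, log2 units); each point is 1 library, grey for saline and coloured and numbered for isoproterenol replicates 1 to 4. Among treated libraries isoproterenol 1 is the lowest and isoproterenol 4 the highest in the metabolic lists, the immune lists lie to the right of saline in every treated library, and the skeletal muscle list varies among the libraries of both groups.

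The lists differed in how far the treated libraries agreed, as the plot of list medians by library shows. For the interferon list the treated medians ran from 1.48 to 3.15 and for lipid-associated macrophage genes from 1.84 to 3.34, so that all 4 libraries stood clear of saline. For the brown and thermogenic list they ran from -4.41 to -0.09 and for fatty acid uptake and oxidation from -3.61 to 0.41. In both lists isoproterenol 1 was far below the other treated libraries and isoproterenol 4 was the highest.

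Single genes gave the extremes of that spread. Among genes with a mean of at least 5 CPM over the 8 libraries, the 8 widest SDs with isoproterenol were those of Cpne5, Xirp2, Mfsd2a, Sgk2, Tmem56, Lgr6, Actn2 and Myot, from 3.85 to 4.50 on the log2 scale. Mfsd2a, a transporter of lysophospholipids induced by adrenergic stimulation, stood at 2.05, 0.749, 5.30 and 0.459 CPM with saline and 0.333, 43.0, 112 and 194 CPM with isoproterenol and was not called (limma adjusted p = 0.119). Isoproterenol 2, 3 and 4 were far above the saline range and isoproterenol 1 was below it, and the gene rose without isoproterenol 1 (log2 fold change 6.06, limma adjusted p = 0.00105). Lgr6, a receptor for R-spondins, stood at 299.5, 148, 321 and 172 CPM with saline and 0.285, 51.8, 56.1 and 116 CPM with isoproterenol, lowest in isoproterenol 1 and below saline in all 4, and it fell without isoproterenol 1 (log2 fold change -1.68, limma adjusted p = 0.00911). Xirp2, Actn2 and Myot are muscle proteins. Xirp2 and Myot followed the split of muscle genes between replicates, with Myot at 0.0708, 7.08, 8.63 and 0 CPM with saline and 0.0476, 14.5, 24.7 and 1.35 CPM with isoproterenol. Actn2 was less divided with saline, at 14.7, 21.7, 21.5 and 7.58 CPM. With isoproterenol it stood at 0.0476, 20.2, 23.8 and 6.12 CPM, far lowest in isoproterenol 1.

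At the other end, 8 genes with at least 4-fold changes had the smallest SDs, from 0.12 to 0.18. Raver2, an RNA-binding protein, stood at 9.21, 12.2, 9.14 and 9.42 CPM with saline and 1.71, 1.54, 1.52 and 1.80 CPM with isoproterenol (log2 fold change -2.58 ± 0.21 (SE), limma adjusted p = 0.000323). Itprip, a protein that binds the inositol trisphosphate receptor, stood at 8.07, 4.50, 9.80 and 5.74 CPM with saline and 29.8, 29.0, 24.9 and 30.3 CPM with isoproterenol (log2 fold change 2.07 ± 0.25 (SE), limma adjusted p = 0.000938). Cacna1a, a calcium channel subunit, fell from 47.9–57.4 to 9.82–12.9 CPM (-2.28), Ndn, the growth suppressor necdin, from 85.4–144 to 20.7–27.1 CPM (-2.21), Ahcyl2 from 189–309.6 to 49.9–64.3 CPM (-2.07) and Zfp931 from 22.3–25.9 to 5.13–6.64 CPM (-2.02). Ctla2a, a cysteine protease inhibitor, rose from 6.58–10.7 to 32.9–44.4 CPM (2.25), and Thbs2 was the remaining gene. For these genes the 4 treated libraries differed little, although the same libraries lay far apart on the axis of largest variance.

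**Figure D5:**
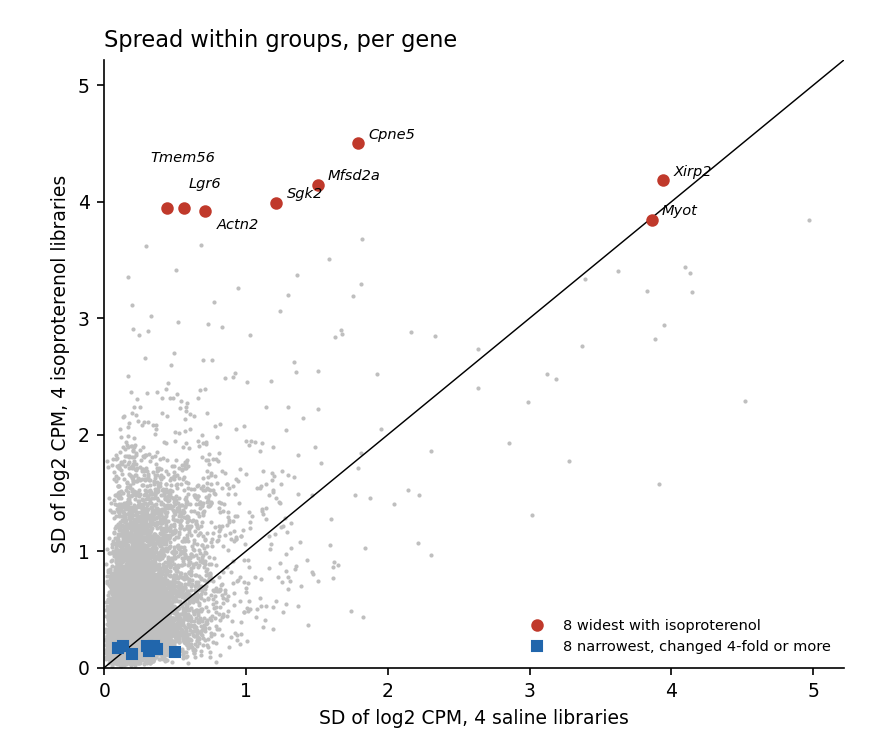
SD of log2 CPM over the 4 isoproterenol libraries (y) against SD over the 4 saline libraries (x) for genes with a mean of at least 5 CPM, 1 point per gene, with the line of equality; the 8 genes with the widest and the 8 with the narrowest spread (among called genes changed at least 4-fold) are marked. Most points lie above the line, and Xirp2 and Myot also vary among saline libraries.

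Some genes lay on both sides of saline at once. Of 11208 genes with a mean of at least 5 CPM, 56 (0.4996%) had at least 1 isoproterenol library 2-fold above the highest saline library and at least 1 that was 2-fold below the lowest. The reverse, saline libraries on both sides of the isoproterenol range, was seen for 2 genes. This rule was chosen after the values were seen. None of the 56 was called by limma, none had an unadjusted p under 0.05 and voom precision weights called 0. The rule itself picks treated libraries spread widely around saline, which makes a call unlikely, so nothing is read from these results. In 39 of them isoproterenol 1 was the lowest and isoproterenol 4 the highest library. They included Fabp4 at 10117, 9401, 10568 and 10413 CPM with saline and 2577, 8733, 12639 and 26476 CPM with isoproterenol and Lpl, the lipase that takes up circulating fat, at 5319, 5327, 4814 and 5617 CPM with saline and 2179.6, 4069.6, 8303 and 11286 CPM with isoproterenol. Cat, the peroxisomal catalase, stood at 960.4, 911, 857 and 919 CPM with saline and 163, 905, 1039 and 2673 CPM with isoproterenol. Each was highest in isoproterenol 4 and lowest in isoproterenol 1, with saline between.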

How the data were processed

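Brown fat RNA was sequenced as stranded poly(A) libraries, per the labels' protocols. The deposited values are log2 CPM for 15350 Ensembl genes in each of 16 libraries, as deposited by the authors. STAR, limma and the mm39 build are named in the submitters' processing notes, and versions, gene annotation and strand setting were not found in the labels or headers. The values behave as log2 of reads plus 0.5, divided by a scaled library size, and whole reads were recovered for 100% of them within a relative tolerance of 1e-06, which gave library depth and the CPM printed. Depth was 9004515 to 20986735 reads over the 8 knockout libraries. Groups came from the treatment and genotype labels. The protocol text of saline samples also describes isoproterenol, and the treatment label was used.

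From these values, limma 3.58.1 in R 4.3.3 was fitted to the 8 knockout libraries (empirical Bayes with trend and robust settings, statmod 1.5.0), with Benjamini-Hochberg adjustment over 15350 genes and calls at an adjusted p under 0.05. Symbols came from GENCODE M21 for 15320 genes, and 30 had none. Ucp1 and Gdf10 had exact permutation tests. The members of 56 gene lists and the comparison were chosen with earlier results of these data known. Named genes are Ucp1 and Gdf10, the 12 largest increases and 12 largest decreases among called, separated genes with at least 5 CPM in the higher group, the 8 widest spreads with isoproterenol and the 8 narrowest among called genes changed at least 4-fold, and list members: 127 of the 228 named from lists are among the 4 largest called changes of a list in their direction, and 69 other called members and 32 not called are given for their role, with preference for genes that kept their call in all 8 fits without 1 library, a choice made with the values known, as was the rule for genes on both sides of saline. Some genes that the rule names are not reported here. Alternatives covered scaling, prior, low-value filter, left-out libraries, replicate blocks, 16 libraries and variance models. The fit was run on simulated data with equal spread in both groups and noise independent between genes. That run does not cover the wider, shared spread of the isoproterenol libraries. Promoter windows (250 bases before to 50 after the start) came from RefSeq GRCm38.p6.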

Additional observations from a re-analysis of the deposited data

Results flagged for a closer look

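Among 284 sets of 4 libraries, 6 (2.11%) had a lowest or highest library whose gap to its neighbour passed Dixon's critical share of the whole range, a rule that chance meets in about 1 of 20 sets. The sets were genes with values printed here, list medians and library measures. They were chosen with the values known, so the rate of 1 in 20 is no test of them. Isoproterenol 1 was the separate library in 3 of the 6. It was lowest for Lgr6, where the gap took 0.864 of the range of log2 CPM, a gene named for its wide spread with isoproterenol. It was lowest for the median of the other heat-producing cycles, with treated medians of -2.73, -0.27, -0.26 and -0.05 on the log2 scale and a gap of 0.92 of the range. It also had the most genes listed with 0 reads, 126 against 42, 37 and 38 in isoproterenol 2 to 4 (gap 0.944 of the range). Saline 4, with the fewest reads, had 108. Isoproterenol 2 stood apart as the highest treated library for Hmox1, with a gap of 0.888 of the range. Among saline libraries, saline 3 was apart as the highest for Gpnmb (0.97 of the range) and saline 2 for Raver2 (0.888).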

How the results depend on the processing

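Leaving out 1 library at a time gave 1518 to 3141 genes called higher and 1728 to 3323 called lower; the libraries without which a count moved by over 1.5 times are saline 1, 2 and 4 and isoproterenol 3 for the increases and saline 2 and 4 for the decreases. Array weights gave 4005 higher and 3979 lower. They weighted isoproterenol 1 to 4 by 0.26, 0.49, 3.79 and 0.38, and saline 1 to 4 by 1.81, 0.81, 2.78 and 1.34. That fit therefore rests mostly on isoproterenol 3 among the treated libraries and gives little weight to their spread. Among small list counts, quantile normalization took the mast cell and keratinocyte increases from 2 to 1, and library totals took the decreases of the integrated stress response from 2 to 1. The other alternatives ran from 2018 to 3647 higher and from 2077 to 3813 lower. The log2 difference of Ucp1 ran from -2.20 to 0.072, above 0 without isoproterenol 1, and that of Gdf10 from -0.47 to 0.34, above 0 without saline 4, isoproterenol 2 or isoproterenol 4.

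The numbers in the titles and in the column headers differ for 3 saline libraries, and the labels do not say that a number marks a shared animal or day. With title numbers, deviations of same-numbered libraries correlated at 0.0405, 0.149, 0.239 and 0.0329. All were positive, and replicates 2 and 3 correlated best with their own number in both groups. With header numbers 1 to 4 the values were -0.0124, -0.0158, 0.131 and 0.0329. In neither numbering were the values above 0.1 in every pair, and not every library correlated best with its own number. The samples were therefore not treated as paired, and fits with a replicate block are given beside. A replicate block from the titles gave 2018 genes higher and 2202 lower, and from the headers 2251 and 2401. Cytosolic ribosomal increases numbered 5 of 44 with either block, against 16 without it. With the pairing by titles, exact two-sided sign-flip tests gave p = 0.625 for Ucp1 and p = 0.875 for Gdf10, where 0.125 is the smallest possible.

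Of 270 genes named, 228 were called. None of those 228 changed direction under any of 19 alternatives, and 197 also kept their call in all of them. The alternatives refit the libraries in which the genes were called, so a change of direction was unlikely beforehand. Genes that kept their call in all 8 fits without 1 library were preferred for naming. Those fits are among the alternatives, so the share was partly set by that choice. Over all 5178 called genes, 2856 (55.2%) kept their call in those 8 fits. Of 42 genes not called, 17 changed sign in at least 1. The log2 fold changes with the other sign were, under array weights, 0.28 for Adrb3, 0.15 for Cat, 0.26 for Dio2, 0.27 for Egr1, 0.21 for Fabp4, 0.097 for Gdf10, 0.20 for Ppargc1a, -0.042 for Sgk2 and 0.84 for Timd4. They were, under quantile normalization, 0.24 for Cat and 0.049 for Fabp4. They were, under scaling by library totals, 0.11 for Ddit3, 0.063 for Fabp4 and 0.15 for Gdf10. The value was, under voom precision weights, -0.24 for Xirp2, and, under log2(CPM + 1), 0.000504 for Timd4. With 1 library left out the log2 fold changes ran over these ranges: Cat -0.77 to 0.58, Col3a1 -0.38 to 0.83, Cpne5 -0.50 to 2.93, Cx3cr1 -0.44 to 0.998, Ddit3 -0.34 to 0.11, Dio2 -0.81 to 0.56, Egr1 -0.78 to 0.49, Fabp4 -0.62 to 0.50, Lpl -0.33 to 0.46, Pdk4 -2.22 to 0.26, Ppargc1a -1.22 to 0.999, Sgk2 -0.81 to 2.08, Timd4 -0.79 to 0.26 and Xirp2 -1.46 to 2.003. The cause was not tested. At 3 reads the libraries resolve 0.143 to 0.345 CPM, so genes near that level are limited by depth.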
